A study of Mus musculus with 6 samples.

Results

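The heat shock proteins and their partner chaperones were followed in hind leg muscle of mice that had or had not been trained on a treadmill. The members were every gene of the deposited table whose symbol places it among the small heat shock proteins, the 40, 70 and 90 kDa heat shock proteins or the chaperonins, together with the heat shock factors Hsf1 and Hsf2. The rule used the symbol and no measured value. It found 82 of the 16759 genes in the table, of which 76 had a mean of at least 1 FPKM (fragments scaled to transcript length and library size) over the 6 libraries and were tested. All animals were male C57BL/6J mice, 8 weeks old when the study began. The Con group (n = 3) had no treadmill training. The EX group (n = 3) ran for 6 weeks, with 5 daily sessions of 60 min in each, to a distance of 22 km per mouse, and was killed 24 h after the last session. The study's methods place the training in the evening, so that the EX mice were killed at about the same time of the evening, and the hour for the Con mice is not given in the sources used here. Each library came from 1 mouse, and the piece of muscle taken for RNA was about as large as a soybean, with no muscle of the leg named. Totals lay between 13845362 and 16240431 counts per library, and the muscle genes Acta1, Tnnt3, Ckm, Mylpf and Myh4 ranked 1, 2, 3, 4 and 13 among all genes by mean FPKM.

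Chaperones bind proteins that are unfolded, newly made or under strain, and keep them from clumping. The 70 kDa proteins take hold of exposed stretches of a client with the help of the 40 kDa proteins, which deliver the client and start the breakdown of ATP, and of exchange factors, which release it. The 90 kDa proteins mature kinases, receptors and, in muscle, myosin. The chaperonins are closed barrels, the CCT ring in the cytosol for actin and tubulin and the Hspd1 and Hspe1 barrel in mitochondria. The small heat shock proteins use no ATP and sit on filaments and Z-discs in muscle. Heat shock factor 1 is held inactive by chaperones and, when they are taken up by damaged protein, binds heat shock elements and turns on many of these genes.

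Of the 76 tested members, 24 were higher and 5 were lower in EX than in Con (edgeR quasi-likelihood test, adjusted p under 0.05 over all 10883 genes tested). Over all genes tested, 9.11% were called higher and 8.80% lower, so that the members called higher, 31.6%, exceeded the background share and those called lower, 6.58%, did not. The median log2 fold change of the members was 0.08, against a median of all genes tested of -9e-04. The 3 EX values lay above all 3 Con values for 35 members, a pattern that 16.7% of all genes showed, and below them for 8 members, a pattern that 16.9% showed. With scaling to library totals alone the split was 17 higher and 7 lower, against 5.38% and 16.3% of all genes in that fit. With limma on log2(TPM + 0.1) it was 12 and 7, against 3.12% and 15.5% of all genes. All members together took 0.893% ± 0.007 (SD, n = 3) of the counts in Con and 0.945% ± 0.0017 (SD, n = 3) in EX, without overlap (two-sided exact permutation test, p = 0.1, the lowest that 3 against 3 allows).

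**Figure D1:**
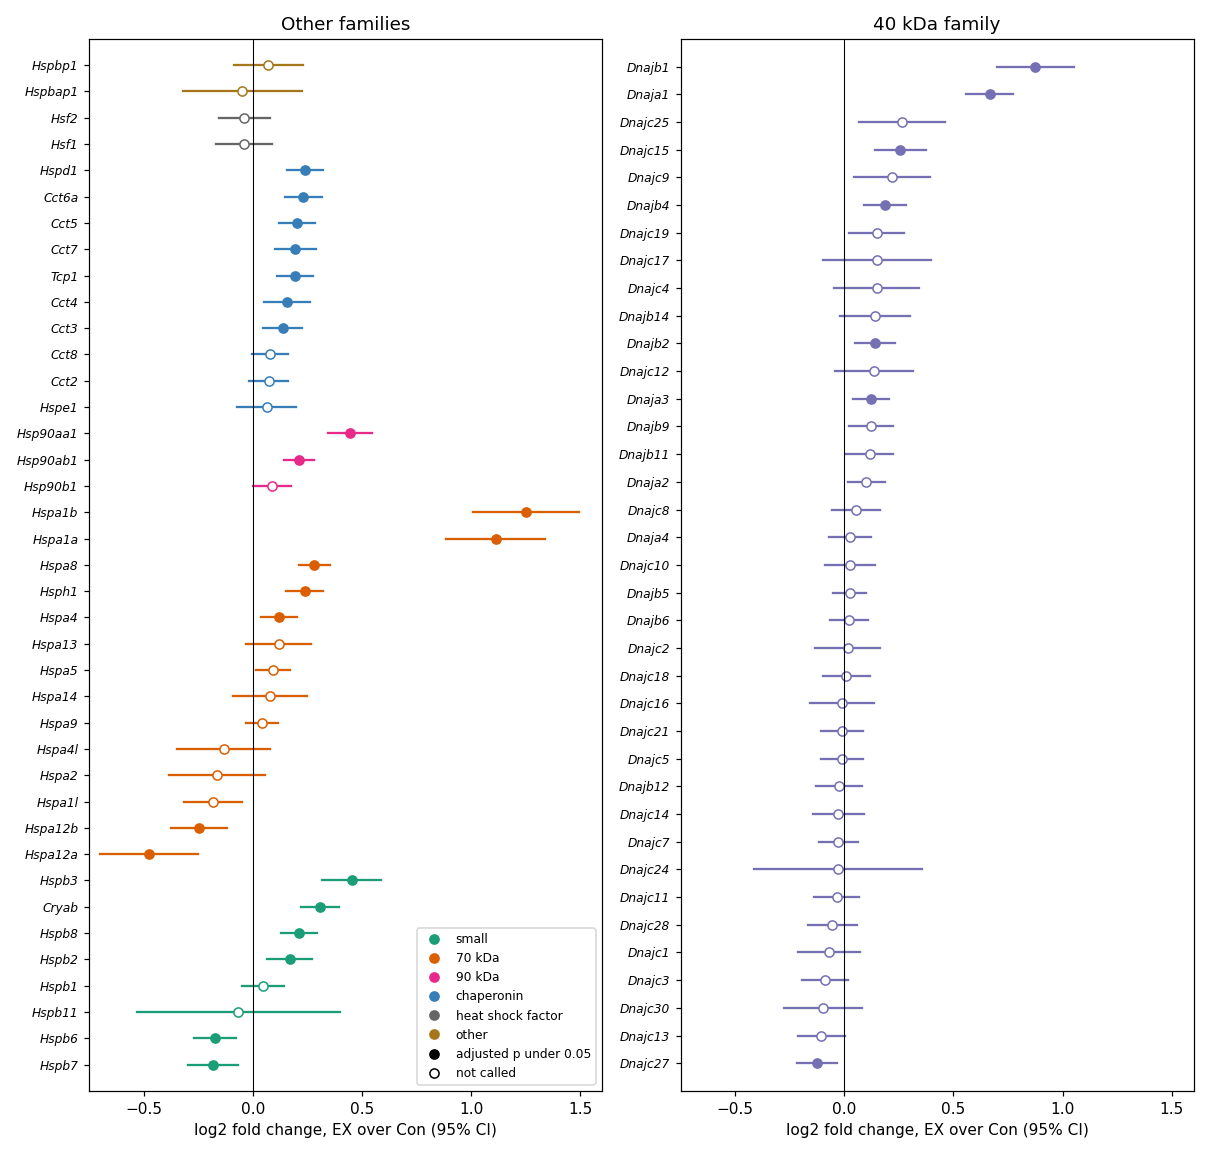
The log2 fold change of EX over Con (x axis) is plotted for each of the 76 tested members (rows), with lines for the 95% confidence interval, colours for the family and filled points for an adjusted p under 0.05. Hspa1b, Hspa1a, Dnajb1 and Dnaja1 lie farthest to the right, at 0.67 to 1.25, most of the 40 kDa family lies near 0, and Hspa12a lies farthest to the left at -0.47.

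Several marker lists also moved between the groups, and fewer cells of a type and less RNA per cell cannot be told apart in whole muscle. Of 10 slow fibre sarcomere genes, 9 were higher and 1 lower, with a summed level of 195 to 204 CPM (counts scaled to library size, after TMM normalization) in Con and 465 to 492 CPM in EX. Myh7, the slow myosin heavy chain, was at 0.891 to 1.19 CPM in Con and at 96.7 to 111 CPM in EX. Of 12 fast fibre genes, 8 were higher and 2 lower, and their sum was 155494 to 156831 CPM in Con and 167358 to 174043 CPM in EX. Of 6 tested genes of satellite cells and regenerating fibres, 3 were higher and 0 lower. The called genes were Actc1 (log2 fold change 1.65), Myog (0.99) and Myod1 (0.44), and the median of the 6 was 0.32. The sum over all 10 listed genes was 555 to 618 CPM in Con and 1652 to 1752 CPM in EX. A sum weighs genes by their level, so it need not hold for each gene. The macrophage list had 6 of 7 genes higher (45.6 to 50.2 CPM in Con, 81.5 to 87.8 CPM in EX), the adipocyte list 5 of 7 (644 to 667 CPM and 748 to 776 CPM) and the tendon and fibroblast list 5 of 9 (763 to 821 CPM and 1002 to 1021 CPM). The endothelial list went the other way, with 5 of 10 genes lower and 1 higher (941 to 958 CPM in Con, 824 to 844 CPM in EX). Of 5 red blood cell genes 1 was higher, with sums of 242 to 266 CPM and 264 to 291 CPM that overlapped. None of the markers in these lists was at 0 in all libraries. The part of these cell types in the chaperone differences below was not tested.

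The 70 kDa family held the members with the largest change. All 14 of its members were tested, of which 5 were higher (35.7%, against 9.11% of all genes) and 2 lower (14.3%, against 8.80%). The median log2 fold change was 0.09, and it was 0.03 under scaling to library totals and -0.008 with TPM. Relative to the median of all genes, these 3 values were 0.087, 0.087 and 0.083. Hspa1a and Hspa1b encode the heat-inducible HSP70, which is kept low in resting cells and rises with heat and other stress. Hspa1b was at 5.45, 5.85 and 4.77 CPM in the Con mice and at 13.3, 11.1 and 13.9 CPM in the EX mice. Hspa1a was at 5.308, 6.998 and 7.965 CPM in Con and at 14.3, 15.1 and 14.8 CPM in EX. For both genes the lowest EX mouse was above the highest Con mouse. The log2 fold change was 1.25 for Hspa1b (SE 0.12, adjusted p = 8.606e-09) and 1.11 for Hspa1a (SE 0.11, adjusted p = 2.059e-08). The 2 genes are near-identical copies, and their deposited counts are not whole in 6 and 5 of the 6 libraries, so how reads were shared between them is uncertain. Their sum does not depend on that split. It was 150, 202 and 202 counts in Con and 438, 411 and 452 counts in EX, a log2 fold change of 1.18 (SE 0.08, adjusted p = 6.261e-12). The log2 ratio of Hspa1b to Hspa1a differed by 0.11 between the groups, within the spread of the mice (exact permutation test, two-sided, p = 0.7, n = 3 per group). That ratio depends on how the reads were shared, so it cannot show whether the 2 genes changed alike.

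The start regions of the pair are shown because the copies are close to identical there too. In RefSeq (GRCm38.p6), 247 of the 250 bases before the start of transcription are the same in Hspa1a and Hspa1b, 98.8%. In the stretch below, which lies on the minus strand of chromosome 17 at chr17:34959239-34959488, the capitals mark 1 match to GAANNTTC, a pair of inverted heat shock element units, which begins 104 bases before the start.
Hspa1b: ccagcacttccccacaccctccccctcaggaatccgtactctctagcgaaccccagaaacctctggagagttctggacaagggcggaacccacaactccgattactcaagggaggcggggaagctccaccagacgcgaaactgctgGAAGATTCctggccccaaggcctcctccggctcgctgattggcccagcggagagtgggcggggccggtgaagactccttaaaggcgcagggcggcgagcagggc
The pair can be arranged as GAANNTTC or as TTCNNGAA, and each of these reads the same on both strands. A match to either arrangement was present in 15.1% of all 32851 promoter windows of 300 bases (250 before and 50 after the start) and in 21 of the 85 windows of the 66 members with an entry, 24.7%. A match is a description of the letters and not of binding. Hspa1l, a testis-type HSP70 gene that lies next to Hspa1a in the genome, was at 26.69, 26.59 and 27.97 CPM in Con and at 25.2, 22.9 and 23.6 CPM in EX. Those groups did not overlap, and the log2 fold change of -0.18 lay just outside the threshold (SE 0.07, adjusted p = 0.05046). Its counts were not whole in 4 libraries.

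Hspa8 was the most abundant member of the family, and its log2 fold change was smaller than that of the inducible pair. This gene, the HSC70 that serves folding and chaperone-mediated autophagy in resting cells, was at 578 FPKM in Con and 675 FPKM in EX, whereas Hspa1a was at 2.77 and 5.82 FPKM. In CPM, Hspa8 was at 1046, 988 and 1001 in Con and at 1237, 1269 and 1186 in EX. The rise was 0.28 on the log2 scale (SE 0.04, adjusted p = 8.858e-07), and every EX mouse exceeded every Con mouse. The log2 ratio of Hspa1a to Hspa8 was higher in EX by 0.86, without overlap (two-sided exact permutation test, p = 0.1, the lowest possible with 3 against 3).

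The family also holds partners of HSP70. Hsph1 (HSP110) and Hspa4 are exchange factors that release the client from HSP70. Hsph1 was at 112, 108 and 111 CPM in Con and at 129, 132 and 129 CPM in EX, with no overlap, and rose by 0.24 on the log2 scale (SE 0.04, adjusted p = 1.028e-04). Hspa4 was at 132, 132 and 131 CPM in Con and at 147, 140 and 142 CPM in EX, again without overlap, and its log2 fold change was smaller, at 0.12 (SE 0.04, adjusted p = 0.03568). The call of Hspa4 was lost in 11 of 17 alternatives, among them each fit without EX 1, EX 3, Con 2 or Con 3. Hspa4l, a relative, had a log2 fold change of -0.13 that was not called (adjusted p = 0.416).

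Hspa12a and Hspa12b, distant members of the family whose link to protein folding is loose, were the called decreases. Hspa12a was at 13.3, 12.9 and 11.8 CPM in Con and at 10.7, 7.51 and 9.08 CPM in EX, a log2 fold change of -0.47 (SE 0.11, adjusted p = 0.002515). Hspa12b, which is known as a gene of endothelial cells, was at 33.9, 33.3 and 38.1 CPM in Con and at 29.1, 30.1 and 29.7 CPM in EX, a log2 fold change of -0.25 (SE 0.06, adjusted p = 0.005282). In both genes all EX mice lay below all Con mice, and the call of Hspa12b was lost without Con 3 (adjusted p = 0.05871). The endothelial list given above was lower in EX as well, in 5 of 10 genes, and its part in the value of Hspa12b was not tested.

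The other 5 members of the family were not called. Hspa5 (BiP), the HSP70 of the endoplasmic reticulum, had EX values above all Con values at 229 to 241 against 217 to 224 CPM, but its log2 fold change of 0.09 (95% confidence interval 0.02 to 0.17) did not pass (adjusted p = 0.08696). Hspa9, the HSP70 of mitochondria, was at 485 to 514 CPM in Con and 508 to 529 CPM in EX, with overlap, and its interval ran from -0.03 to 0.11. The log2 fold changes of Hspa13, Hspa14 and Hspa2 were 0.12, 0.08 and -0.16.

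**Figure D2:**
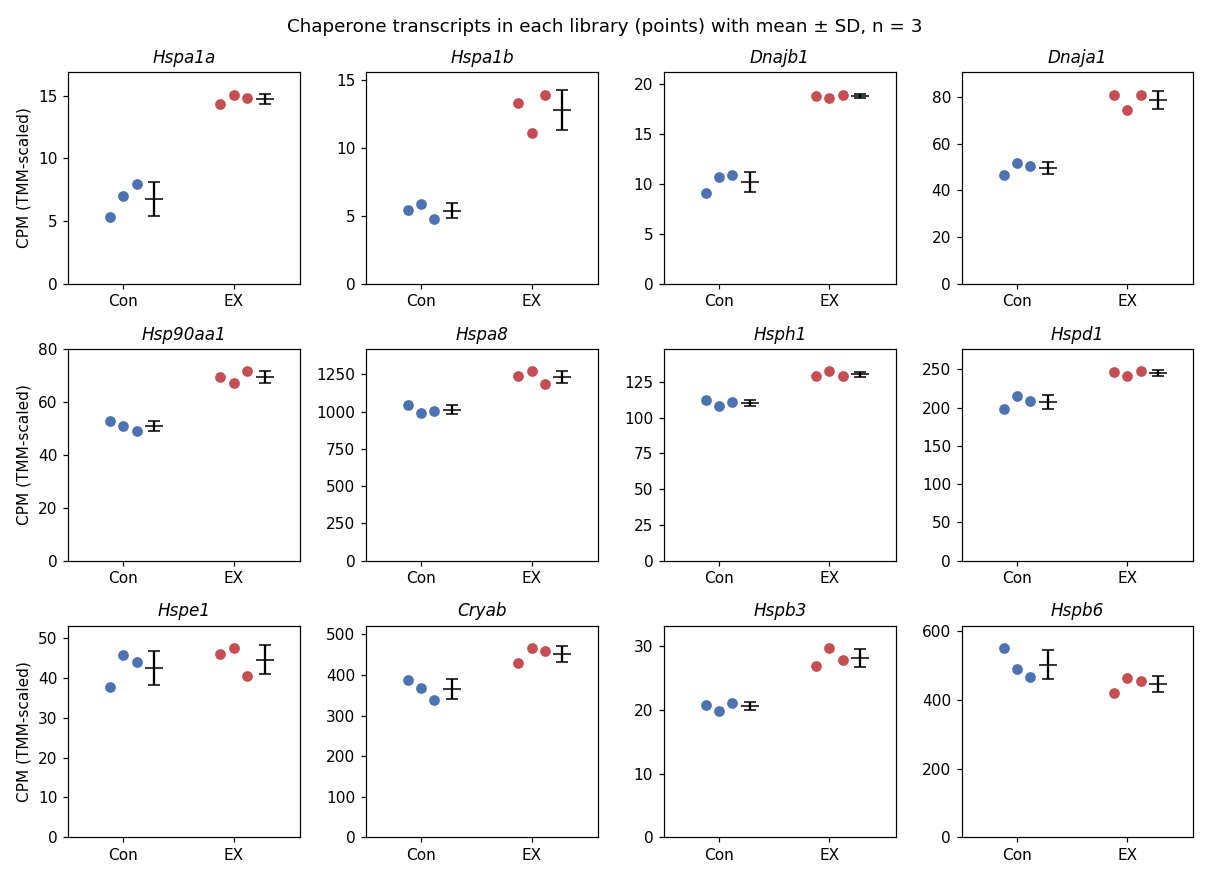
The level of 12 members (panels, y axis in TMM-scaled CPM from 0) is drawn for each of the 3 Con and 3 EX mice as points, with the mean and SD as bars. Con and EX do not overlap in 11 panels, with Hspb6 the only gene of these that is lower in EX, and they overlap for Hspe1.

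The 40 kDa proteins are the largest family, named for the J-domain through which they act on HSP70. Of 40 genes, 37 were tested, and 6 were higher and 1 lower, with a median log2 fold change of 0.03 that turned negative under scaling to library totals (-0.03) and with TPM (-0.06). By class, of 4 Dnaja genes 2 were higher (50%) and of 9 tested Dnajb genes 3 were higher (33.3%). Of 24 tested Dnajc genes 1 was higher and 1 lower (4.17% each, under the share of all genes). The median log2 fold changes were 0.11, 0.12 and -0.01 in the same order. The Dnaja and Dnajb classes hold the general partners of HSP70, and the Dnajc genes are a mixed class with special clients and places.

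Dnajb1 and Dnaja1, partners of HSP70 in the cytosol, changed most in the family. Dnajb1 was at 9.04, 10.7 and 10.8 CPM in Con and at 18.8, 18.6 and 18.9 CPM in EX, a log2 fold change of 0.88 (SE 0.09, adjusted p = 1.743e-08). Dnaja1 was at 46.6, 51.7 and 50.2 CPM in Con and at 80.7, 74.2 and 81.0 CPM in EX, a log2 fold change of 0.67 (SE 0.05, adjusted p = 1.829e-10). For both genes the EX mice were well apart from the Con mice, and neither call was lost in any of the 17 alternatives.

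The remaining called genes of the family moved less. Dnajc15, a J-protein of the mitochondrial import machinery and the most abundant of the family at 98.9 FPKM in Con and 113 FPKM in EX, was at 32.3, 31.7 and 30.5 CPM in Con and at 37.7, 38.7 and 36.5 CPM in EX (log2 fold change 0.26, SE 0.06, adjusted p = 0.001724). Dnajb4 (0.18, adjusted p = 0.005882), Dnajb2 (0.14, adjusted p = 0.02725) and the mitochondrial Dnaja3 (0.12, adjusted p = 0.03152) were higher without overlap. Dnajc27, which joins a J-domain to a small GTPase, fell from 87.9, 88.7 and 89.9 CPM to 78.5, 82.2 and 83.7 CPM (log2 fold change -0.13, SE 0.04, adjusted p = 0.04902). The calls of Dnajb2, Dnaja3 and Dnajc27 were lost in 9, 11 and 9 of 17 alternatives, among them for each gene the fits without Con 2, Con 3 or EX 3, and that of Dnajb4 was lost in 4, with library totals and the 3 limma fits.

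Abundant 40 kDa genes were not all higher. Dnajb5 and Dnajb6, the latter an inhibitor of protein clumping that is mutated in a muscular dystrophy, had overlapping groups and log2 fold changes of 0.02 each, with intervals of -0.05 to 0.10 and -0.07 to 0.11. Dnaja2 (0.10, adjusted p = 0.09661) and Dnajc19 of the mitochondrial import machinery (0.15, adjusted p = 0.09292) had EX values above all Con values without passing the test. The largest change in the family that was not called was 0.26, in Dnajc25 (adjusted p = 0.05739), named here after its values were seen. The genes left out for low values were Dnajc22, Dnajb3 and Dnajc6, with at most 2 counts in any library.

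All 3 genes of the 90 kDa family were tested, and both cytosolic genes were higher (66.7% of the family, against 9.11% of all genes). Hsp90aa1, the inducible form, was at 52.9, 51.1 and 49.0 CPM in Con and at 69.6, 67.2 and 71.6 CPM in EX (log2 fold change 0.45, SE 0.05, adjusted p = 1.190e-07). Hsp90ab1, the constitutive form, was at 1100, 1081 and 1053 CPM in Con and at 1223, 1264 and 1258 CPM in EX (log2 fold change 0.21, SE 0.03, adjusted p = 2.692e-05). In neither gene did the groups overlap. Per length, Hsp90ab1 was the more abundant in both groups, at 502 and 558 FPKM against 20.5 and 26.9 FPKM for Hsp90aa1. The log2 ratio of the inducible to the constitutive form was higher in EX by 0.23, from -4.42 to -4.38 in Con and from -4.23 to -4.14 in EX (two-sided exact permutation test, p = 0.1, the lowest possible). Hsp90b1 (GRP94), the form of the endoplasmic reticulum, overlapped between the groups and was not called (log2 fold change 0.09, adjusted p = 0.1505).

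**Figure D3:**
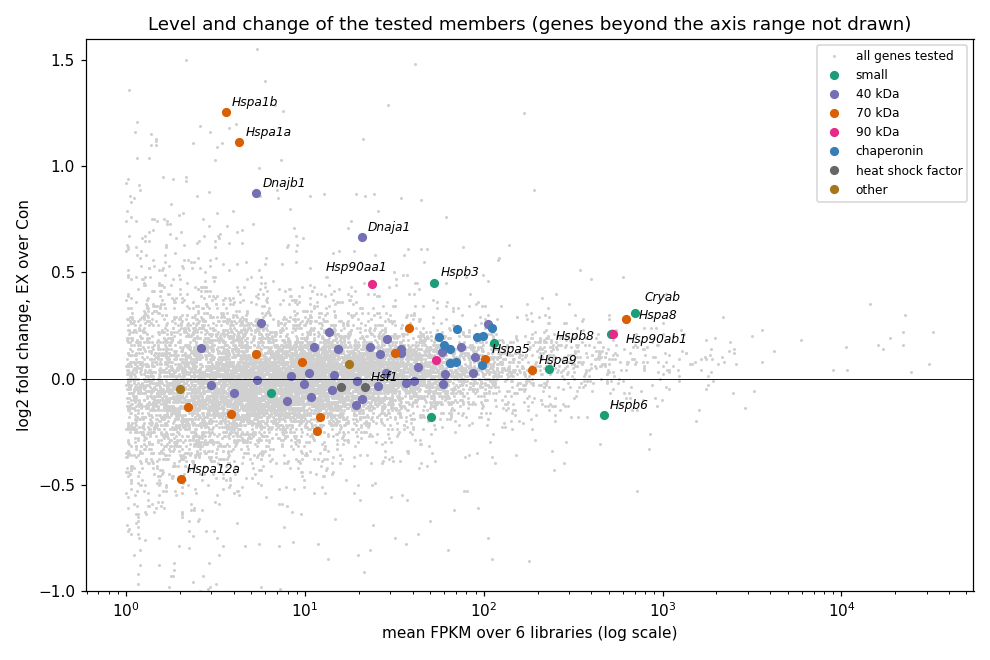
The log2 fold change of EX over Con (y axis) is plotted against the mean FPKM over 6 libraries (x axis, log scale) for the tested members, coloured by family, over all genes tested in grey. The low inducible genes Hspa1a, Hspa1b and Dnajb1 lie high above the grey cloud, and the abundant Cryab, Hspa8, Hspb8 and Hsp90ab1 lie between 0.21 and 0.31.

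Among the chaperonins the called differences were small and all upward. Of 12 genes 10 were tested, of which 7 were higher and 0 lower by edgeR, 5 were higher and 0 lower by DESeq2, and 3 were higher and 0 lower by limma on log2(FPKM + 0.1). At an unadjusted p under 0.05 the edgeR counts were also 7 and 0, against 15.5% and 15.1% of all genes. The family had a median log2 fold change of 0.18 that stayed positive under every scaling tried, at 0.08 or more. For all 8 subunits of the CCT ring, which folds actin and tubulin, the EX values were above all Con values. Of all genes tested, 16.7% showed this pattern. The subunits called were Cct6a (0.23), Cct5 (0.20), Cct7 (0.19), Tcp1 (0.19), Cct4 (0.16) and Cct3 (0.14), and Cct8 (0.08) and Cct2 (0.07) did not pass. Cct6a, the most changed, was at 118, 120 and 124 CPM in Con and at 139, 143 and 144 CPM in EX (SE 0.04, adjusted p = 1.410e-04). Tcp1, the subunit after which the ring was first named, was at 176, 190 and 191 CPM in Con and at 209, 211 and 219 CPM in EX (SE 0.04, adjusted p = 9.749e-04). The fold changes of the 8 subunits thus ran from 0.07 to 0.23, and the signs of Cct2 and Cct8 turned with TPM. The calls of Cct3 and Cct4 were each lost in 9 of 17 alternatives, among them the fits without Con 3, EX 2 or EX 3, and without Con 3 the log2 fold change of Cct4 was 0.08. Those of Tcp1 and Cct7 were lost in the 3 limma fits, and that of Cct5 with TPM, whereas Cct6a kept its call in all 17. The list of prefoldin and tubulin folding genes, which work before and after the ring, had 0 of 14 called by edgeR, DESeq2 or limma and 1 higher at an unadjusted p under 0.05, against 15.5% of all genes. The relatives Cct6b and Cct8l1 had at most 5 counts in any library and were not tested.

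Hspd1 and Hspe1 form the mitochondrial chaperonin, the barrel and its lid, and are transcribed in opposite directions from a shared start region. Their heat shock element is shown because it is among the few exact 3-unit matches of the set. The 250 bases before the start of Hspe1 lie on the plus strand of chromosome 1 at chr1:55087898-55088147 (GRCm38.p6, RefSeq), and the capitals mark 2 overlapping matches to GAANNTTCNNGAA or its reverse complement TTCNNGAANNTTC, in 18 bases from 89 to 72 bases before the start.
Hspe1: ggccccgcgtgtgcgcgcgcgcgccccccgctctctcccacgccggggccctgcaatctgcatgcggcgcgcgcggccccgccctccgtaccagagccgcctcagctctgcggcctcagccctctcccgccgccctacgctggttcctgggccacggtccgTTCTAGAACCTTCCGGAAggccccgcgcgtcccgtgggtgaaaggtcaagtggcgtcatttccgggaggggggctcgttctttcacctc
Hsph1: TTCTGGAAAGTTC
The window of Hspe1 and that of 1 start of Hspd1 share 285 bases, so that the same 18 bases stand before both genes. The match of Hsph1 lies at chr5:149636288-149636300 on the minus strand, 15 bases after a start that RefSeq lists for it, and is printed in capitals throughout because all of it is the match. A 3-unit match was present in 198 of the 32851 promoter windows, 0.603%. Among windows of members it was present in 6 of 85, 7.06%, which belong to Hspd1, Hspe1, Hsph1 and Dnajb6. Some of these windows overlap. By gene, the match was present in 4 of the 66 members with an entry and in 179 of all 27025 genes. Of these 4 members, Hspd1 and Hsph1 were called higher, and Hspe1 and Dnajb6 were not. Members without an entry, among them the called genes Hspa8, Hsp90aa1, Hsp90ab1, Cryab and Hspb2, were not searched.

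The genes on either side of that shared region did not give the same call. Hspd1 was at 198, 216 and 209 CPM in Con and at 247, 241 and 247 CPM in EX, without overlap (log2 fold change 0.24, SE 0.04, adjusted p = 5.507e-05), and its call was lost with TPM (adjusted p = 0.05033). Hspe1 was at 37.7, 45.8 and 43.9 CPM in Con and at 45.9, 47.4 and 40.4 CPM in EX, with overlap (log2 fold change 0.06, 95% confidence interval -0.07 to 0.20, adjusted p = 0.5515). The log2 ratio of Hspd1 to Hspe1 was 2.23 to 2.39 in Con and 2.34 to 2.61 in EX. These ranges overlapped, so a difference between the genes was not shown (exact permutation test, two-sided, p = 0.2, n = 3 per group).

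Among the small heat shock proteins calls went in both directions. Of 9 genes 8 were tested, of which 4 were higher (50%, against 9.11% of all genes) and 2 lower (25%, against 8.80%). Cryab (alpha-B crystallin), which holds desmin and other filaments at the Z-disc, was the most abundant of them at 637 FPKM in Con and 762 FPKM in EX. It was at 388, 368 and 339 CPM in Con and at 429, 466 and 459 CPM in EX, and rose by 0.31 on the log2 scale (SE 0.04, adjusted p = 5.243e-06). Hspb8, which works with Bag3 in the clearance of damaged filament proteins, was at 775, 692 and 684 CPM in Con and at 820, 842 and 830 CPM in EX (0.21, SE 0.04, adjusted p = 2.662e-04), and its call was lost with TPM. Hspb3 and Hspb2 form a complex in muscle, and both were higher. Hspb3 was at 20.7, 19.8 and 21.1 CPM in Con and at 26.9, 29.7 and 27.8 CPM in EX (0.45, SE 0.07, adjusted p = 1.274e-05), and Hspb2 at 53.1 to 54.6 CPM in Con and 57.1 to 62.5 CPM in EX (0.17, adjusted p = 0.01739). The call of Hspb2 was lost in 7 of 17 alternatives, among them DESeq2 and the fits without EX 2 or EX 3.

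Hspb6 and Hspb7 were the members of the family that fell. Hspb6 (HSP20), which is bound up with relaxation of smooth and heart muscle, was at 550, 491 and 466 CPM in Con and at 420, 462 and 455 CPM in EX (log2 fold change -0.17, SE 0.05, adjusted p = 0.009024). Hspb7, a binder of filamin in heart and skeletal muscle, was at 150, 126 and 121 CPM in Con and at 112, 118 and 118 CPM in EX (-0.18, SE 0.06, adjusted p = 0.02106). In both genes Con 1 was the highest library, and the highest EX value lay close under the lowest Con value. Without Con 1 the log2 fold change was -0.11 for Hspb6, which was still called, and -0.09 for Hspb7, which was not (adjusted p = 0.1622). The call of Hspb7 was lost in 6 of 17 alternatives, among them also the fits without EX 1 or EX 3, and that of Hspb6 was lost with DESeq2 and without EX 1. Hspb1 (HSP27) overlapped between the groups at 129 to 139 CPM in Con and 129 to 147 CPM in EX, with an interval of -0.05 to 0.14 for its log2 fold change. Hspb11 was at 1.63 to 3.18 CPM, with counts that are not whole in 3 libraries, and its interval ran from -0.53 to 0.40. Hspb9 had at most 1 count in a library and was not tested.

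Cryab and Hspb2 lie next to each other in the genome, and their log2 ratio was higher in EX by 0.14, without overlap (two-sided exact permutation test, p = 0.1, the lowest possible). The slow fibre list was higher in EX in the same libraries, as given above, and its part in this ratio was not tested.

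**Figure D4:**
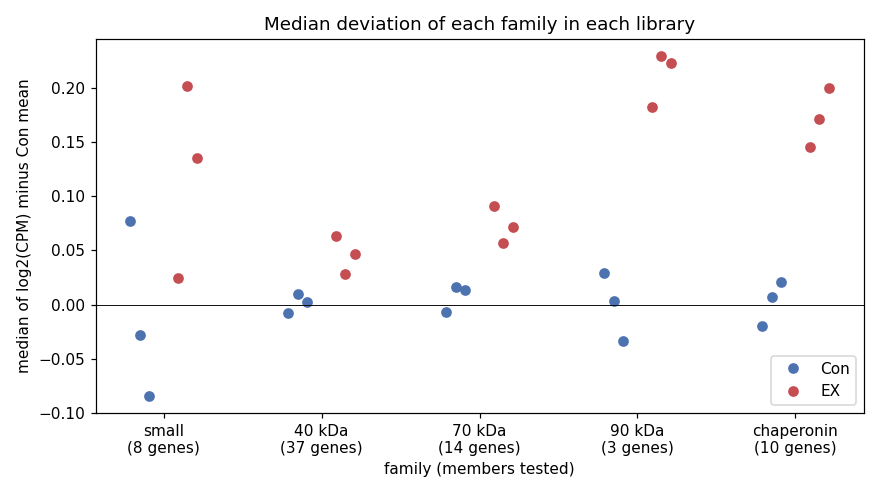
For each of the 5 families (x axis), points give the median over tested members of log2(CPM) minus the Con mean in each of the 3 Con and 3 EX mice (y axis, log2 units). The EX points lie above the Con points in the 40, 70 and 90 kDa families and the chaperonins, and in the small family EX 1 (0.03) lies below Con 1 (0.08).

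The members can also be grouped by the compartment in which they work. Of 8 members placed in the endoplasmic reticulum, 0 were called by edgeR, DESeq2 or limma. At an unadjusted p under 0.05, 4 were higher, which 15.5% of all genes were. The 8 members had a median log2 fold change of 0.09, and 4 had EX above all Con values, as 16.7% of all genes did. Of 8 members placed in mitochondria, 3 were higher (Hspd1, Dnajc15 and Dnaja3), 37.5% against 9.11% of all genes, also with a median of 0.09. The call of Dnaja3 was lost in 11 of 17 alternatives, and that of Hspd1 with TPM. A difference between the compartments was not tested. The other genes of these compartments gave counts near the background. Of 18 genes of endoplasmic reticulum folding 2 were higher (11.1%, against 9.11% of all genes), the disulfide isomerase Pdia6 (0.25, adjusted p = 0.001422) and the lectin chaperone Calr (0.20, adjusted p = 0.001117), and the stress sensor Ern1 was lower (5.56%, against 8.80%), with a log2 fold change of -0.36 (adjusted p = 0.0312) whose call was lost with DESeq2 and without Con 1, Con 2, EX 2 or EX 3. Of 11 further mitochondrial chaperones and proteases 1 was higher (9.09%), Grpel2, an exchange factor for Hspa9 (0.25, adjusted p = 0.005965), and its call was lost without Con 2. The calls of Pdia6, Calr and Grpel2 were lost in the 3 limma fits.

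The heat shock factors themselves were not called by edgeR, DESeq2 or limma, nor at an unadjusted p under 0.05. Hsf1 was at 46.7, 43.7 and 37.7 CPM in Con and at 41.3, 42.1 and 40.8 CPM in EX, with all EX values inside the Con range. Its log2 fold change was -0.04 (95% confidence interval -0.17 to 0.09, adjusted p = 0.6988). Hsf2 was at 39.0, 42.1 and 41.8 CPM in Con and at 42.5, 37.2 and 40.1 CPM in EX, with overlap (-0.04, interval -0.16 to 0.08). Factor activity, which is set by trimer formation and modification of the protein, was not measured by these libraries. Hspbp1 and Hspbap1, binding proteins that the symbol rule also takes, were not called (0.07 and -0.05).

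Genes that work with the chaperones but were no members gave a mixed account. Of 25 co-chaperones of HSP70 and HSP90, 5 were higher and 0 lower by edgeR, 4 and 0 by DESeq2, and 2 and 0 by limma on log2(FPKM + 0.1), and at an unadjusted p under 0.05 edgeR gave 9 and 0. The 5 are 20% of the list, against 9.11% of all genes called higher, and the 9 compare with 15.5% of all genes higher at an unadjusted p. The called genes included Fkbp5, an immunophilin of steroid receptor complexes that glucocorticoids induce, at 37.6, 39.9 and 43.8 CPM in Con and 52.9, 50.4 and 55.6 CPM in EX (log2 fold change 0.39, SE 0.06, adjusted p = 1.436e-05). Ahsa2, of the HSP90 activator family (0.25, adjusted p = 0.001457), the myosin chaperone and methyltransferase Smyd1 (0.19, adjusted p = 1.309e-04) and the cyclophilin Ppid (0.17, adjusted p = 0.02633) were higher too. The call of Ppid was lost in 8 of 17 alternatives, among them the fits without Con 3, EX 1 or EX 2. Ahsa2 lost its call in the 3 limma fits and Smyd1 with TPM, and Fkbp5 kept its call in all 17. Of 14 tested genes of the heat shock factor pathway 3 were higher, Hsbp1l1 (0.75, adjusted p = 0.02629), the collagen chaperone Serpinh1 (0.24, adjusted p = 0.001053) and the immunophilin Fkbp4 (0.15, adjusted p = 0.009597). Those 3 are 21.4% of the list, against the 9.11% of all genes called higher. Fkbp4 is also among the 5 called co-chaperones, so the 2 shares are not separate. The call of Hsbp1l1 was lost with DESeq2 and in each fit without Con 1, Con 2, EX 1, EX 2 or EX 3. That of Fkbp4 was lost with library totals, the 3 limma fits and without EX 2, and that of Serpinh1 with TPM.

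Lists for temperature, recent stimulation and time of day were read beside the chaperones. Cirbp, an RNA-binding protein induced by mild cold, was at 29.2, 35.2 and 34.3 CPM in Con and at 24.3, 25.3 and 25.5 CPM in EX (log2 fold change -0.40, SE 0.07, adjusted p = 1.057e-04), without overlap. Rbm3, the other gene of that list, was not called (-0.06). Of 12 tested immediate early genes 4 were higher, led by Fosl2 (0.79) and Atf3 (0.64), and 4 lower, led by Btg2 (-0.54) and Egr1 (-0.51). Of 15 tested circadian clock genes 6 were lower, led by Ciart (-0.85) and Nr1d1 (-0.85), and Per2 was higher (0.18). The calls of Ciart and Nr1d1 were kept in all 17 alternatives, and that of Per2 was lost in 9, among them DESeq2 and the fits without Con 1, Con 3, EX 1 or EX 2. These lists moved in the same libraries as the chaperones, and their part in the chaperone differences was not tested.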

How the data were processed

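Total RNA from hind leg muscle of 3 Con and 3 EX mice was sequenced as 150 bp paired reads on the DNBseq platform, with 1 library per mouse. The table the authors deposited gives estimated counts, FPKM and TPM per gene and library. FPKM and TPM are their normalizations of those counts. The study's methods name HISAT with GRCm39, whereas the submitters' processing notes name cutadapt, MultiQC, featureCounts and GRCm38.p6. Between 4.18% and 4.44% of counts per library were not whole (tolerance 1e-06).

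The estimated counts were rounded and tested with edgeR 4.0.16 (glmQLFit, glmQLFTest, TMM) in R 4.3.3, two-sided, for genes averaging 1 FPKM or more, with Benjamini-Hochberg adjustment over all 10883 genes tested and a threshold of 0.05 without a fold limit. The fit was tested on simulated data. Levels are CPM after TMM scaling, and SE and 95% intervals come from the fit. Ratios of members were compared with exact permutation tests. Alternatives used limma 3.58.1, DESeq2 1.42.0, other scalings and filters, a replicate block and each library left out. The 6 columns of group means were not used. A floor of 3 counts equals 0.188 to 0.215 CPM and covers counting error only.

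The text names every called member, all tested members outside the 40 kDa family, its 5 most abundant genes, and at most 4 called genes of a list. The members and lists were chosen with earlier results of these data known, and the compartments were assigned after the values were seen. Promoter sequences are RefSeq's, searched in Python. A result for 1 gene of the heat shock factor pathway list is not reported here.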

Additional observations from a re-analysis of the deposited data

How the results depend on the processing

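Of the 29 members called, 13 kept their call in every alternative that gave a value and 0 reversed. Of 22 named members that were not called, 4 (Dnaja2, Dnajc25, Hspa1l and Hspa2) were called in at least 1 alternative. Members called higher numbered 24, but 15 with limma on log2(FPKM + 0.1) or log2(FPKM + 1) and 12 on log2(TPM + 0.1), and members called lower numbered 5, but 2 with DESeq2. Leaving out each library gave 18 to 24 higher and 3 to 5 lower. The lowest count of 3 was reached without Con 3 (Dnajc27 and Hspa12b lost), without EX 1 (Dnajc27, Hspb6 and Hspb7 lost, Hspa1l gained) and without EX 3 (Dnajc27 and Hspb7 lost). Over all genes 991 were higher and 958 lower, against 643 and 585 with DESeq2, 585 and 1774 with library totals, 340 and 1684 with TPM, and 411 higher with either FPKM fit. The cause of these shifts was not tested.

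The median of all genes tested was -0.0575, -0.0559, -0.0487 and -0.0912 (log2) with library totals, log2(FPKM + 0.1), log2(FPKM + 1) and log2(TPM + 0.1). In that order the 40 kDa median was -0.030, -0.029, -0.028 and -0.064, the 70 kDa median 0.029, 0.027, 0.026 and -0.008, the 90 kDa median 0.16, 0.15, 0.15 and 0.12 and the chaperonin median 0.12, 0.12, 0.12 and 0.085. Relative to the median of all genes, the 40 kDa median was 0.0205 to 0.0274 in these 4 fits and the 70 kDa median 0.0749 to 0.0867. In the same order Dnajb5 turned to -0.032, -0.033, -0.032 and -0.068, Dnajb6 to -0.036, -0.028, -0.028 and -0.064, Hspa9 to -0.015, -0.015, -0.015 and -0.051 and Hspb1 to -0.0098, -0.016, -0.016 and -0.052, and Hspb11 turned to 0.044, 0.030 and 0.011 in the last 3. With TPM, Cct2 turned to -0.021, Cct8 to -0.013, Hsp90b1 to -0.0037, Hspa14 to -0.015, Hspa5 to -7e-04, Hspbp1 to -0.029 and Hspe1 to -0.028. Over the fits that left out 1 library each, the genes whose sign turned and the 40 kDa median had these ranges. Dnajb6 ran from -0.0037 to 0.045, Hsf1 from -0.13 to 0.020, Hsf2 from -0.084 to 0.0097, Hspb1 from -0.0062 to 0.087, Hspb11 from -0.28 to 0.24, Hspbap1 from -0.15 to 0.032, Hspe1 from -0.014 to 0.13 and the 40 kDa median from 0.014 to 0.045. None of these genes was called in any of the 17 alternatives (16 for Hspbap1).

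Equal replicate numbers did not pair the mice (correlations of -0.078, -0.051 and -0.027). With a replicate block 22 members were higher and 4 lower, and Dnaja3, Hspa4 and Dnajc27 lost their call. The 9 members Hspa1a, Hspa1b, Hspa2, Hspa4l, Hspa12a, Hspbap1, Dnajc1, Dnajc24 and Dnajb14 lay under a filter of 5 FPKM and had no value there. Summing Hspa1a and Hspa1b was an alternative chosen after the values were seen. With 3 mice a group, p-values of the exact tests could not fall below 0.1.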
